A study of Mus musculus with 2 samples.

Results

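Pck1, G6pc, Fbp1, Pklr, Gys2, Pygl, Khk and Slc2a2 are 8 genes through which the hepatocyte makes, burns, stores and moves sugar. They were chosen by symbol, as a pathway set, and all 8 were found among the 31053 features of both libraries. The series holds liver cells of C57BL/6 mice kept for 6.5 weeks on chow or on a NASH diet, which is high in fructose, fat and cholesterol. NASH, non-alcoholic steatohepatitis, is fatty liver with inflammation and cell damage. There was 1 library per diet, and the labels do not say how many mice went into each. Cells were freed with collagenase and collected on Percoll gradients meant to keep non-parenchymal cells and hepatocytes of several densities, and droplet libraries of transcript 3′ ends were made from them. With a single library a diet, no difference below has a replicate check or a p-value, and diet, animal, digestion and library cannot be told apart.

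Blood glucose between meals comes largely from the liver. Gluconeogenesis runs from lactate and amino acids through phosphoenolpyruvate carboxykinase (Pck1) and fructose-1,6-bisphosphatase (Fbp1) to glucose-6-phosphatase (G6pc), an enzyme of the endoplasmic reticulum membrane that releases free glucose. Liver pyruvate kinase (Pklr) runs the last step of glycolysis in the other direction, glycogen synthase (Gys2) and glycogen phosphorylase (Pygl) fill and empty the glycogen store, ketohexokinase (Khk) takes up fructose into metabolism by phosphorylating it, and GLUT2 (Slc2a2) carries glucose and fructose across the hepatocyte's plasma membrane. These steps are zoned along the liver lobule: gluconeogenesis is known as a periportal activity, near incoming blood, and glycolysis as a pericentral one, near the central vein. Insulin, glucagon and sugar itself set the transcription of several of these genes.

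In the GENCODE M21 annotation of GRCm38 all 8 are protein coding: Pck1 lies at chr2:173153048-173159273 on the plus strand, G6pc at chr11:101367561-101377903 (plus), Fbp1 at chr13:62864753-62888282 (minus), Pklr at chr3:89136142-89146784 (plus), Gys2 at chr6:142422613-142473109 (minus), Pygl at chr12:70190811-70231488 (minus), Khk at chr5:30921431-30931248 (plus) and Slc2a2 at chr3:28697903-28731359 (plus). Pklr overlaps Hcn3 on the other strand, which had 7 UMIs in the hepatocyte-like cells of each library. The lincRNA F730035M05Rik overlaps Pygl and had 3 and 0 UMIs, and the antisense gene 1700112D23Rik overlaps Slc2a2 and had 0 in both.

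RefSeq promoters (GRCm38.p6) were matched for 7 of the 8 genes, and Gys2 had no entry. The 250 bases before the start are shown for Pck1, G6pc, Pklr and Slc2a2, because these are the genes whose diet difference varied most along the lobule. Capitals mark a cyclic AMP response element variant in Pck1, the insulin response core (read on the reverse strand), the FOXA core and the TATA box in G6pc, and a pair of carbohydrate response half-sites and the TATA box in Pklr. Each sequence is written 5′ to 3′ on the strand of its gene.
Pck1, chr2:173152823-173153072, plus strand: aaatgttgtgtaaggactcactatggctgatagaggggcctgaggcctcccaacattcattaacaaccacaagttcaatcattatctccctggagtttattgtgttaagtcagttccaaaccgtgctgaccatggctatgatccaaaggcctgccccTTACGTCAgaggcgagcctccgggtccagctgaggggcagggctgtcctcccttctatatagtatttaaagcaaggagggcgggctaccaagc
G6pc, chr11:101367466-101367715, plus strand: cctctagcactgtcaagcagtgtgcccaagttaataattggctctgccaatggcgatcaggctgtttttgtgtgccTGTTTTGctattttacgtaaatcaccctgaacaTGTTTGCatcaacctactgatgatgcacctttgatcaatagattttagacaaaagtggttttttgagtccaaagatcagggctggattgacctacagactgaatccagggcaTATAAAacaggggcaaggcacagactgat
Pklr, second of its 2 listed starts, chr3:89136373-89136622, plus strand: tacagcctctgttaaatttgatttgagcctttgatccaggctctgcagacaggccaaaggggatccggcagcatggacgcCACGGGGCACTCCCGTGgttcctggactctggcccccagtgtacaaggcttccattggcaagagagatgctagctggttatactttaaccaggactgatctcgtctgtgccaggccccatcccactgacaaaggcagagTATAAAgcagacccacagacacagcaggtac
Slc2a2, chr3:28697653-28697902, plus strand: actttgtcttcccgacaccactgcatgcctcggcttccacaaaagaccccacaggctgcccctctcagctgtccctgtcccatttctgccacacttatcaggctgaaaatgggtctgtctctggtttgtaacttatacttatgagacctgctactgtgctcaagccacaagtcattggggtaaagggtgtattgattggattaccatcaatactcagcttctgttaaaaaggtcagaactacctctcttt
The element TTACGTCA lies 93 to 86 bases before the Pck1 start and is found on either strand in 0.447% of 32851 promoters cut to the same 250 bases. In G6pc the insulin response core CAAAACA (174 to 168 bases before the start) is held by 5.56% of promoters, the FOXA core TGTTTGC (141 to 135) by 4.3% and TATAAA (29 to 24) by 12.4%. The Pklr pair, CACGGG and CCCGTG with 5 bases between them, 170 to 154 bases before the start, is held by 1 of the 32851 promoters, which is Pklr itself; it was added to the search after the sequences had been read. The E-box CACGTG stands 71 to 66 bases before the Khk start and in 6.02% of promoters. Slc2a2 held only CCAAT boxes (33.8% of promoters) among the motifs searched, which also took in TGACGTCA, its core TGACG, TTGCGCAA, TTGCGAAA and the HNF1 motif. A match describes letters in a window and is no evidence of binding.

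Unique molecular identifiers (UMIs) count captured transcripts. The chow library had 7359 barcodes and 71635757 UMIs, the NASH diet library 5881 barcodes and 39440182 UMIs, with medians of 4843 and 2305 UMIs a barcode. More of the NASH diet RNA was mitochondrial (median 34.3% against 20.7% of a barcode's UMIs), and 3511 and 3033 barcodes over 30% were left out. After filters and clustering, 2129 chow and 1160 NASH diet cells were hepatocyte-like, with medians of 23213 and 19528.5 UMIs and of 18.0% and 23.0% mitochondrial UMIs. All 12 hepatocyte markers used were present in both, Alb at 25271 and 36369 on the counts-per-million scale of all UMIs (CPM). Of 10 marker lists of other cells, 7 summed to at most 10.1 CPM in both libraries. The exceptions were the dendritic list, with 6 and 5 of its 7 genes at 0, at 171 and 190 CPM, the cholangiocyte list at 157 and 106, and the erythroid list at 44.8 and 1655. The clusters that make up the class hardly mix: most chow cells sit in clusters led by Mup17 and Cyp2e1, by Cyp2f2 and Hpx, or by Fdps and Selenbp2, and most NASH diet cells in clusters led by Apoa4 and Hsd17b6, by Cyp4a14 and Cyp4a10, or by Sds and Acaa1b. The 8 genes and their pathways took no part in the clustering. Between libraries 69 barcodes were shared, 2 of them among hepatocyte-like cells.

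Levels below are CPM over the summed UMIs of a class, with 95% exact Poisson intervals, and differences are log2 ratios with a pseudocount of 1 CPM, with exact conditional intervals computed without it. These intervals cover counting error only. A difference is counted when it reaches 1.5-fold. Of 10616 genes with at least 50 UMIs in the hepatocyte-like cells of both libraries together, 9.88% were that much higher and 4.89% that much lower in the NASH diet library. Against this background 2 of the 8 genes were higher, Gys2 and Slc2a2, and 0 were lower. In 7 of 8 the ratio was above 0, with a median of 0.45 for the 8 and 0.13 for all genes tested. Among genes of at least 20 CPM in one library the shares were 11.6% higher and 6.12% lower.

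Gys2 showed the largest diet difference of the 8. The chow library had 33.4 CPM (31.7 to 35.1) of it and the NASH diet library 127 (122 to 132), 3.72-fold more, a log2 ratio of 1.89 (1.84 to 2.02) that lies above that of 99.4% of genes tested. The intervals do not touch. The ratio held past the threshold under all 23 other settings tried, between 1.58 and 2.03. Of these settings, dropping the minimum of 50 UMIs and counting at 2-fold cannot change the ratio of any gene. Pygl, the enzyme of the opposite reaction, had 138 CPM (135 to 142) on chow against 182 (177 to 188) on the NASH diet, a log2 ratio of 0.40 that fell short of the threshold.

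Slc2a2 reached 115 CPM (111 to 118) on chow against 242 (236 to 249) on the NASH diet, 2.105-fold higher, with a log2 ratio of 1.07 (1.03 to 1.13). It too passed the threshold in all 23 other settings, between 0.94 and 1.47. Khk, the other entry point of dietary fructose, was at 197 CPM (193 to 201) and 280 CPM (273 to 287), a ratio of 0.51 (0.46 to 0.56). Pklr stood at 37.3 CPM (35.6 to 39.1) and 54.8 CPM (51.7 to 57.9), a ratio of 0.54 (0.45 to 0.66). Both Khk and Pklr were higher on the NASH diet but under 1.5-fold, at 1.42-fold and 1.45-fold.

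The 3 gluconeogenic members did not move together. Pck1, the committed step, reached 2240 CPM (2227 to 2254) on chow against 1562 (1546 to 1579) on the NASH diet, a ratio of -0.52 (-0.54 to -0.50), and is the only one of the 8 that was lower. Its sign changed in 2 of 23 other settings, to 0.23 in cells of at most 10% mitochondrial UMIs and to 0.02 in cells of 5000 to 10000 UMIs. Fbp1 was at 554 CPM (547 to 561) and 686 (675 to 697), a ratio of 0.31 that came to -0.04 in cells of 10 to 20% mitochondrial UMIs and -0.07 in cells of 5000 to 10000 UMIs. G6pc, the last step, was at 146 CPM (143 to 150) and 190 (184 to 196), a ratio of 0.37. That ratio was 2.90 in cells of at most 10% mitochondrial UMIs and 2.45 in cells of 5000 to 10000 UMIs, and Pygl was at -0.03 and -0.25 in the same cells. The cells of at most 10% include some of a cluster rich in nuclear RNA and in G6pc; without it G6pc was at 14.8 and 28.0 CPM over non-mitochondrial UMIs. In the 10 to 30% mitochondrial cells with at least 10000 UMIs, a choice made after the data were seen, the 8 ratios were -0.56 for Pck1, 0.28 for G6pc, 0.17 for Fbp1, 0.53 for Pklr, 1.92 for Gys2, 0.43 for Pygl, 0.43 for Khk and 1.12 for Slc2a2.

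**Figure D1:**
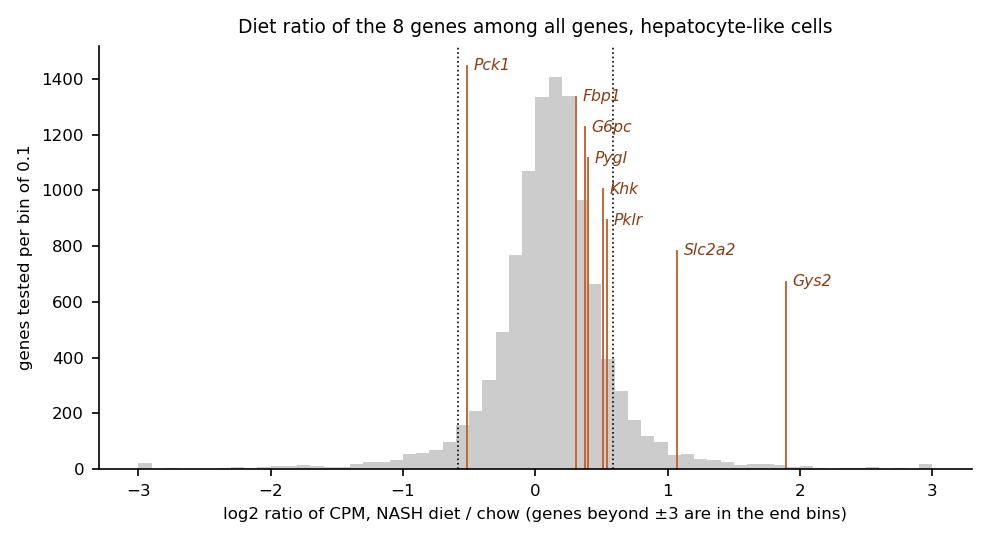
Histogram of the log2 ratio of CPM, NASH diet over chow, for the 10616 genes tested in hepatocyte-like cells; orange lines mark the 8 genes at their ratio (line height has no meaning) and dotted lines mark 1.5-fold. Gys2 at 1.89 and Slc2a2 at 1.07 stand right of the dotted line, 5 genes lie between 0.31 and 0.54, and Pck1 is left of 0 at -0.52.

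The same differences were seen in how many cells had a UMI of each gene. Cells were thinned to 3000 UMIs each, and the 178 chow and 47 NASH diet cells with fewer were dropped. A Gys2 UMI was then found in 9.58% of chow cells (Clopper-Pearson 8.31 to 11.0) and 29.8% of NASH diet cells (27.2 to 32.6), and without thinning in 47.0% and 81.0%. For Slc2a2 the thinned shares were 25.3% (23.4 to 27.3) and 46.5% (43.6 to 49.5), and the unthinned 70.7% and 81.7%. Pck1 reached 98.5% of chow and 92.5% of NASH diet cells after thinning. The share was higher on the NASH diet for the other 5 as well: G6pc 29.7% and 37.6%, Fbp1 75.3% and 80.5%, Pklr 9.64% and 14.1%, Pygl 36.8% and 41.6%, Khk 44.3% and 56.0%. Among cells of at least 5000 UMIs, Gys2 was at 0 in 47.0% of 1845 chow cells and 13.8% of 1061 NASH diet cells, and the median cell held 26.9 and 117 CPM. The tenth of NASH diet cells richest in it held 27.5% of its UMIs.

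Non-parenchymal cells should lack most of these transcripts, so their level there was set beside that of hepatocyte transcripts such as Alb, which free RNA can carry into any droplet. In the pooled 180 chow and 169 NASH diet non-parenchymal cells (median 3937.5 and 3984 UMIs) G6pc stood at 2.05% and 1.51% of its hepatocyte level, from 3 UMIs each, and Slc2a2 at 2.62% and 4.36%. Alb, the albumin transcript of hepatocytes, stood at 3.07% and 3.28% there, and Apoa1 at 7.04% and 7.25%. Pck1 (6.42% and 6.26%), Gys2 (8.98% and 7.56%) and Pklr (2.67% and 7.01%, from 1 and 4 UMIs) lay nearer to Apoa1 or Alb than to their hepatocyte level. After thinning to 3000 UMIs, 0 of 102 chow non-parenchymal cells had a G6pc, Pklr or Slc2a2 UMI, which at this depth allows up to 2.94% of cells with a UMI (3 counts of the total) and does not limit the cells that express the gene, and 1.96% had a Gys2 UMI. In the NASH diet library 0 of 92 had one of Gys2, which allows up to 3.26% with a UMI, and between 2.17% and 3.26% had one of G6pc, Pklr or Slc2a2. The thinned hepatocyte shares of these 4 genes all lay above these values.

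Pygl, Khk and Fbp1 lay higher in the non-parenchymal pools. Pygl was at 75.9 CPM (59.8 to 94.99) in the chow pool and 36.4 (25.8 to 50.03) in the NASH diet pool, 54.9% and 19.99% of its hepatocyte level. It was highest in the few neutrophil-like cells (8 and 3), at 484 CPM (242 to 866) from 11 UMIs and 574 (231 to 1183) from 7, above the hepatocyte level. The mononuclear phagocyte-like cells (90 and 96) were at 81.0 and 23.6 CPM, from 45 and 10 UMIs. This class may mix cell types, in unlike shares in the libraries. At Leiden resolution 2, 46 chow and 9 NASH diet cells were mononuclear phagocyte-like. There 47 and 85 cells were T or NK cell-like, a class that the main clustering lacked. Khk stood at 36.04% and 23.6% of its hepatocyte level and at 88.2 and 99.0 CPM in mononuclear phagocyte-like cells. Fbp1 stood at 18.2% and 7.83%, with 198 CPM in the 64 endothelial-like chow cells. Whether these cells express the genes or carry free RNA was not tested.

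For position in the lobule, hepatocyte-like cells of each library were ranked by a score of 13 pericentral minus 14 periportal markers and cut into 3 groups of equal size, of 710, 709 and 710 chow cells and 387, 386 and 387 NASH diet cells. None of the 8 genes is a marker. Cyp2e1, a pericentral marker, went from 14.9 to 3755 CPM between periportal and pericentral chow cells and from 28.4 to 5379 on the NASH diet. The groups are ranges of a score and not cell types: 307 chow and 189 NASH diet cells lie within 0.1 of a cut. In chow, 5 of the 8 genes were at least 1.5-fold lower in pericentral than periportal cells (background 4.97% of 9768 genes) and 0 were higher (background 8.03%). In the NASH diet library 2 were lower (4.07% of 8872) and 0 higher (16.9%). The median ratio of the 8 was -0.68 in chow and -0.41 on the NASH diet, where that of all genes was 0.10 and 0.24. Every one of the 16 ratios was below 0.

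Of the gluconeogenic genes, Pck1 was lower towards the central vein in both libraries, more so on the NASH diet. In chow it was at 2677 CPM in periportal, 2077 in midlobular and 1852 in pericentral cells, a pericentral over periportal log2 ratio of -0.53 (-0.55 to -0.51). On the NASH diet it was at 2205, 1630 and 900.5 CPM, a ratio of -1.29 (-1.33 to -1.25). Fbp1 showed the like. It was at 639, 641 and 377 CPM in chow, a ratio of -0.76, and at 846, 922 and 356 CPM on the NASH diet, a ratio of -1.25 (-1.31 to -1.19). Fbp1 was level or slightly higher in midlobular cells and lowest near the central vein. G6pc took the other course: at 197.5, 132.6 and 96.4 CPM it had the steepest slope of the 8 in chow, -1.03 (-1.12 to -0.95), while on the NASH diet it stood at 222, 156 and 185.5 CPM, a ratio of -0.26 (-0.36 to -0.16) with its lowest value in the middle. That last ratio was above 0 in 3 of 16 other settings, up to 3.19 in cells of at most 10% mitochondrial UMIs. Its lowest value was -0.50, in cells of 10 to 30% mitochondrial UMIs with at least 10000 UMIs, where chow had -0.995. The cluster rich in nuclear RNA and in G6pc had 37 of its 73 NASH diet cells in the pericentral group and 3 in the periportal one. Its part in the NASH diet slope was not tested.

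Pklr was also periportal in chow, at 47.1, 37.2 and 25.6 CPM, a ratio of -0.85 (-1.05 to -0.71). On the NASH diet it was level, at 56.1, 53.5 and 54.4 CPM with overlapping intervals and a ratio of -0.04 (-0.24 to 0.15). Slc2a2 went from 157 through 96.6 to 78.6 CPM in chow, a ratio of -0.99 (-1.10 to -0.90), and from 293 through 188 to 235 CPM on the NASH diet, a ratio of -0.32 (-0.40 to -0.23). In cells of at most 10% mitochondrial UMIs, 10 and 6 of which were periportal, the Slc2a2 ratio was 0.67 in chow and 0.85 on the NASH diet. G6pc, Pklr and Slc2a2 had shallower slopes in the NASH diet library, by 0.77, 0.81 and 0.67 on the log2 scale, while Pck1 and Fbp1 had steeper ones, by -0.76 and -0.49.

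Khk, Pygl and Gys2 differed less in slope. Khk was at 225, 213 and 148 CPM in chow and 310.5, 325 and 218 on the NASH diet, with ratios of -0.60 and -0.51. Triokinase (Tkfc, named after its values were seen), which acts later in fructose breakdown, had slopes of -0.86 and -0.77. Pygl was nearly level, with ratios of -0.27 and -0.17. Gys2 ran from 37.2 through 30.2 to 31.4 CPM in chow (-0.24) and from 155 through 122 to 103 CPM on the NASH diet (-0.58).

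**Figure D2:**
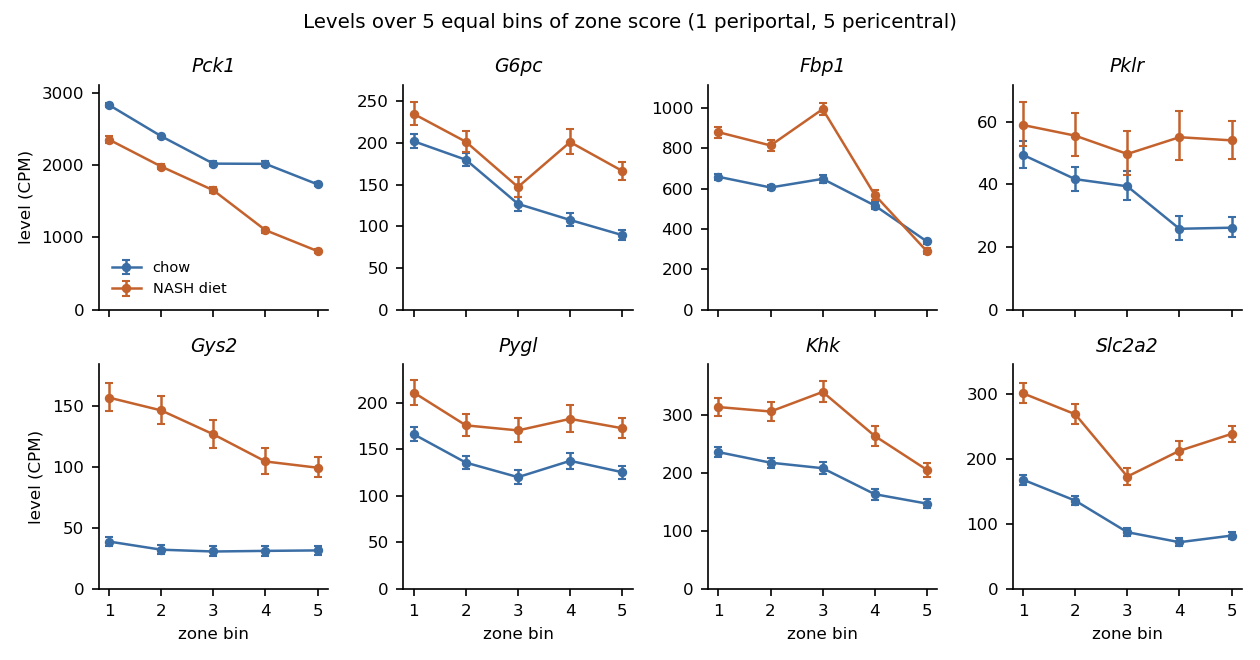
Level in CPM (y axis, from 0) of each gene over 5 equal bins of zone score (x axis, 1 most periportal, 5 most pericentral) in hepatocyte-like cells of the chow and the NASH diet library; bars are 95% Poisson intervals. Pck1 goes from 2833 to 1734 CPM in chow and from 2354 to 809 on the NASH diet, Pklr is level on the NASH diet, and the Gys2 lines stay apart in every bin.

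Seen by zone, the diet differences of Pck1, G6pc, Pklr and Slc2a2 were widest in pericentral cells, while that of Gys2 was widest in periportal cells and those of Fbp1 and Khk in midlobular cells. In periportal cells 2 of the 8 were at least 1.5-fold higher on the NASH diet (background 7.96%) and 0 lower (7.49%), in midlobular cells 3 (13%) and 0 (6.23%), and in pericentral cells 4 (13.1%) and 1 (5.06%). The median ratio of the 8 was 0.38, 0.52 and 0.75 in the 3 groups, and that of all genes 0.04, 0.16 and 0.18. Pck1 was lower mainly near the central vein, with ratios of -0.28 in periportal, -0.35 in midlobular and -1.04 (-1.08 to -1.003) in pericentral cells. Pklr went the other way with 0.25, 0.51 and 1.06 (0.89 to 1.28), G6pc with 0.17, 0.23 and 0.94 (0.84 to 1.049), and Slc2a2 with 0.89, 0.95 and 1.57 (1.48 to 1.68). The pericentral intervals of these 4 genes do not overlap their periportal ones. Fbp1 was higher on the NASH diet in periportal (0.41) and midlobular cells (0.52) and at -0.08 in pericentral cells. Gys2 was higher everywhere, with 2.03, 1.98 and 1.69, and Pygl (0.36 to 0.47) and Khk (0.46 to 0.61) hardly varied.

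**Figure D3:**
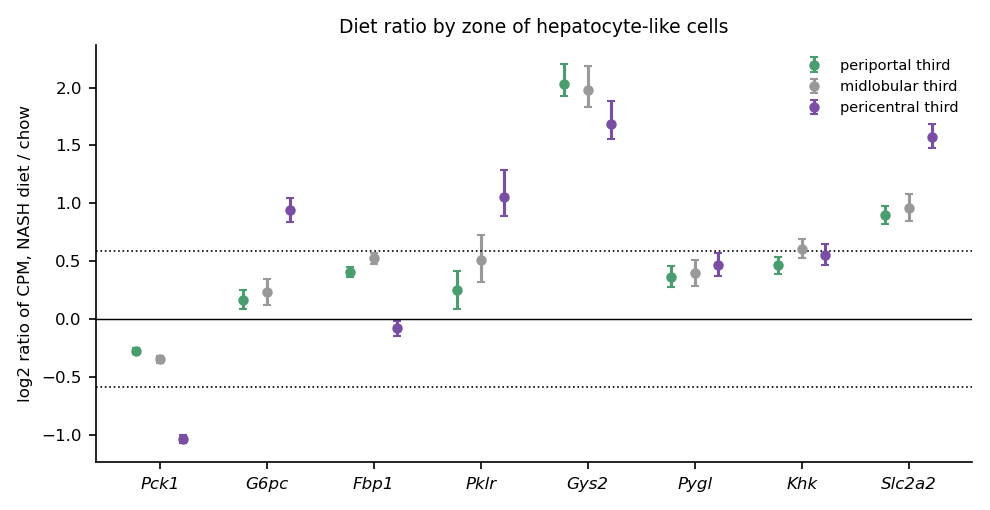
Log2 ratio of CPM, NASH diet over chow (y axis), of each gene in periportal, midlobular and pericentral hepatocyte-like cells, with 95% exact conditional intervals of counting error; dotted lines mark 1.5-fold. In pericentral cells Pck1 is at -1.04, and G6pc, Pklr and Slc2a2 lie at 0.94, 1.06 and 1.57, above their other values.

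Several measures moved with these zone groups. Summed immediate early genes, which cell isolation can raise, stood at 1211, 1249 and 975 CPM from periportal to pericentral cells in chow and at 597, 970 and 1148 CPM on the NASH diet; 11 of the 11 measured were at least 1.5-fold higher in pericentral cells there and 0 in chow. Nuclear RNAs such as Malat1 stood at 1694, 1578 and 1237 CPM in chow and 1601, 2879 and 1991 CPM on the NASH diet. The erythroid marker list summed to 45.0, 43.3 and 45.8 CPM in chow and to 58.9, 1066 and 3617 CPM on the NASH diet. Summed acute phase genes were at 98934 CPM in chow hepatocyte-like cells and 17167 CPM in the NASH diet library, with 16 of 16 at least 1.5-fold lower in the latter. Their part in the results was not tested. With 1 cut for both libraries, 35.8% of chow and 28.8% of NASH diet cells were pericentral. In the 10 to 30% mitochondrial cells with at least 10000 UMIs the pericentral diet ratios were -1.11 for Pck1, 0.68 for G6pc, 1.07 for Pklr and 1.57 for Slc2a2, and 4 of the 8 were higher and 1 lower. Over all zones of these cells 9.01% of genes tested were higher and 5.45% lower. The share in their pericentral group alone was not computed.

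Genes with the most similar course were sought over 10 pools, the 5 zone bins of each library, among 4154 genes. The pools of a library share it, so the Pearson r values below describe these pools only. Khk ran most like Gpi1, glucose-6-phosphate isomerase (r = 0.98), and urate oxidase Uox (0.98). Gys2 ran most like the alanine transaminase Gpt2 (0.99), Tmed5 (0.99) and ornithine decarboxylase Odc1 (0.99), and Fbp1 like argininosuccinate lyase Asl (0.98), Zap70 (0.98) and Qprt (0.96). The closest to Slc2a2 were the bile acid carrier Slc10a1 (0.98), Smpdl3a (0.97) and Cd151 (0.97). For Pck1 they were Erp44, F7 and Prdx4 (0.97 to 0.96), for G6pc Rab6a, Cadm1 and Anks4b (0.97 to 0.94), for Pklr Zyx, Hnmt and Sco2 (0.96 to 0.94), and for Pygl Abca8a, Aass and Necap1 (0.95 to 0.94).

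The other genes of carbohydrate metabolism are given by list, to be read against the 9.88% of all genes tested that were at least 1.5-fold higher in the NASH diet library, the 4.89% that were lower and their median ratio of 0.13. Of 15 gluconeogenesis genes tested, 7 were higher and 2 lower, with a median ratio of 0.55. The dicarboxylate carrier Slc25a10 went from 67.9 to 158 CPM (1.202), and alanine transaminase Gpt from 78.8 to 153 CPM (0.95). Slc37a4, which carries glucose-6-phosphate to G6pc, went from 47.4 to 100 CPM, a ratio of 1.07. Tyrosine aminotransferase Tat was at 1022 and 520 CPM (-0.97) and the lactate carrier Slc16a1 at 38.2 and 24.3 CPM (-0.63). Of 12 glycolysis genes, 2 were higher and 0 lower (median 0.32): enolase Eno1 (0.68) and Gpi1 (0.66).

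Of 16 glycogen genes besides Gys2 and Pygl, 3 were higher and 0 lower, with a median of 0.16, close to the 0.13 of all genes. Ugp2, which makes the UDP-glucose that glycogen synthase uses, stood at 142 CPM in chow and 345 CPM on the NASH diet (1.27), phosphoglucomutase Pgm2 at 106 and 165 CPM (0.63), and Ppp1r3b, which brings protein phosphatase 1 to glycogen, at 79.0 and 125 CPM (0.65). Of 9 fructose and galactose genes, 4 were higher and 1 lower (median 0.35). Sorbitol dehydrogenase Sord, which makes fructose, went from 373 to 969 CPM (1.38), and galactokinase Galk1 from 23.3 to 49.4 CPM (1.053). Of 7 pentose phosphate genes 0 were higher and 1 lower, with a median of -0.13.

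Of 23 genes of hormonal and carbohydrate control, 4 were higher and 3 lower, with a median of 0.19, where 9.88% and 4.89% of all genes were and their median was 0.13. Txnip, which is known to follow glucose, went from 18.9 to 64.9 CPM (1.73), pyruvate dehydrogenase kinase Pdk2 from 22.3 to 49.3 CPM (1.11), and Srebf1, a lipogenic regulator under insulin, from 40.1 to 76.3 CPM (0.91). Igfbp1, which insulin represses, was at 202 CPM in chow and 20.1 CPM on the NASH diet, a ratio of -3.27 (-3.47 to -3.20), and Cebpb went from 376 to 211 CPM (-0.83). Mlxipl, the carbohydrate response factor ChREBP, was at 62.7 and 71.6 CPM, a ratio of 0.19.

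In hepatocyte-like cells with little mitochondrial RNA, Slc2a2 and G6pc had the lowest ratios of the 8 genes. The comparison was made after the data were seen. Cells of at most 10% mitochondrial UMIs numbered 319 on chow and 135 on the NASH diet (median 4710 and 9267 UMIs) once a cluster rich in nuclear RNA was left out, against 1793 and 952 cells of 10 to 30% (median 25423 and 20790). Levels here are CPM over non-mitochondrial UMIs. Slc2a2 was at 10.6 CPM (6.84 to 15.6) in the low group and 148 (144 to 152) in the rest in chow, and at 21.8 (15.5 to 29.8) and 342 (333 to 351) on the NASH diet, log2 ratios of -3.69 and -3.91. G6pc was at 14.8 (10.3 to 20.6) and 189 (185 to 194) in chow, and at 28.0 (20.8 to 36.9) and 242 (234 to 249) on the NASH diet, ratios of -3.59 and -3.07. In these cells both were 8.38-fold to 15.02-fold lower, in either library. Clusters of low mitochondrial share were also poor in nuclear RNAs such as Malat1. The Fdps and Selenbp2 cluster (337 chow cells) held 7.39 CPM of them over all UMIs, where the chow class held 1513. The Sds and Acaa1b cluster (161 NASH diet cells) held 42.6 CPM, where the NASH diet class held 2102. Whether such barcodes are whole cells was not tested.

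The other 6 had ratios between -1.03 and 1.502. Fbp1 was higher in the low group, at 1537 against 620 CPM in chow and 2105 against 742 on the NASH diet (1.31 and 1.502), and Khk likewise (0.58 and 0.78). Pck1 was at -1.03 and -0.34, Gys2 at -0.30 and -0.71, Pklr at -0.56 and -0.48, and Pygl at 0.22 and -0.29. The background was wide: 44% of genes were at least 1.5-fold lower and 23.1% higher in chow, and 46.4% and 22.1% on the NASH diet. Slc37a4, the carrier that feeds glucose-6-phosphate to G6pc, stood at -2.09 and -3.02 and the reticulum enzyme H6pd at -3.27 and -3.42; both were picked after their values were seen.

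**Figure D4:**
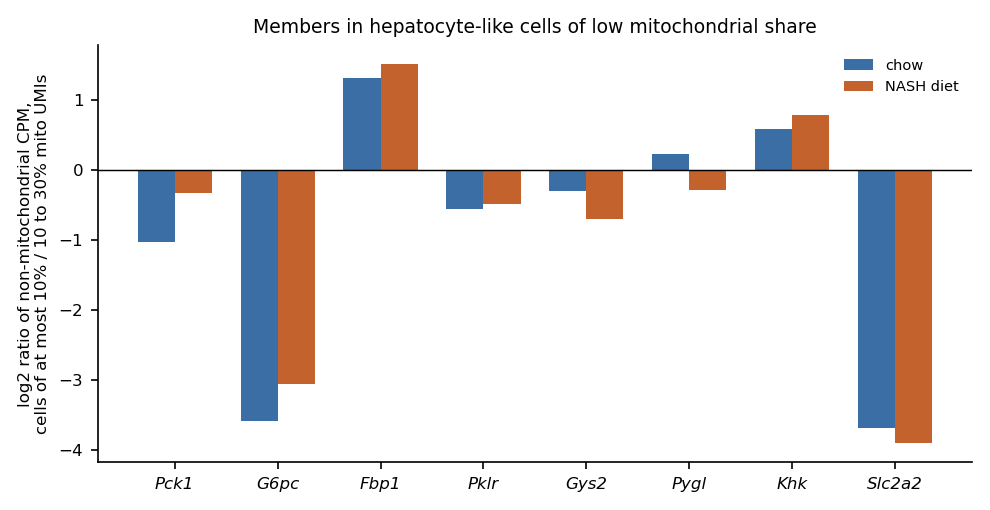
Log2 ratio of the level (CPM over non-mitochondrial UMIs) in hepatocyte-like cells of at most 10% over those of 10 to 30% mitochondrial UMIs (y axis), for the 8 genes in the chow and the NASH diet library; bars start at 0. G6pc and Slc2a2 lie between -3.07 and -3.91 in both libraries, and Fbp1 and Khk lie above 0.

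The low-UMI droplets of hepatocyte RNA, 1713 in chow and 965 on the NASH diet, also held less G6pc and Slc2a2 than the cells did. Their G6pc was at 51.1 and 52.7 CPM over non-mitochondrial UMIs, with 178.5 and 241.5 in hepatocyte-like cells, and their Slc2a2 at 35.3 and 49.1, with 140 and 308. Fbp1 in contrast stood at 1091 and 1780 in the droplets and 676 and 872 in the cells. The cells of at most 10% mitochondrial UMIs were unevenly placed. The midlobular group held 189 of 330 in chow and 102 of 157 on the NASH diet, and the periportal group 10 and 6. With zones cut anew in cells of 10 to 30% mitochondrial UMIs, the midlobular diet ratio was 0.20 for Fbp1 and 0.39 for Khk. With all cells these ratios were 0.52 and 0.61. The cause was not tested. G6pc and Slc2a2 had their lowest NASH diet levels in the same midlobular group. Whether the cells of low mitochondrial share lowered them there was not tested either. The cluster led by Nr1i3 and Angptl8 and rich in nuclear RNA held 73 NASH diet cells and 17 chow cells. Its NASH diet cells had 1381 CPM of G6pc and 2980 of Pck1, where the class as a whole had 190 and 1562, but 68.1 CPM of Gys2 against 127. Without that cluster the G6pc diet ratio was 0.24 in place of 0.37.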

How the data were processed

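Droplet 3′ libraries of mouse liver cells from 1 chow and 1 NASH diet sample were analysed from the UMI counts the authors deposited for each library. Per the submitters' processing notes these were made with Cell Ranger 3.1.0 on mm10 and handled in Seurat, while the file headers name Cell Ranger 3.0.2; the gene annotation was not given in the sources used here. A merged matrix was also deposited, in which chow keeps 86.4% of its UMIs. The 8 genes and all lists were chosen with earlier results of these data known. Barcodes with at least 200 genes, 500 UMIs and at most 30% mitochondrial UMIs were kept. Doublets were taken as the highest Scrublet scores at 0.8% per 1000 barcodes (433 and 277 barcodes, of which 285 and 64 passed the filters), because Scrublet's own threshold marked 0; the 4041 and 2305 cells left were clustered jointly (scanpy 1.11.5; 2000 variable genes, 30 components, 15 neighbours, Leiden resolution 1, seed 0). Clusters were named from marker lists and may differ from the study's own names; clusters under a low-UMI limit were held apart as droplets of hepatocyte RNA. UMIs were summed per class, and no test was made, since each diet has 1 library. The same ratios over all genes served as background. The ratio and its interval were checked on simulated counts, drawn from the chow levels once these had been computed. Of the thinning only the total left in each simulated cell was checked, not the shares of genes. The cell classes and zones were not checked in this way. All 8 genes are named; from each list up to 3 genes most higher and 3 most lower among those past 1.5-fold with at least 20 CPM in one library were named, and for each of the 8 the 3 genes of highest r. 1 gene that these rules name is not reported here. Alternatives changed the denominator, scaling, matrix, mitochondrial and UMI range, class definition, doublets, clustering, pseudocount, thinning, zone markers and cuts.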

Additional observations from a re-analysis of the deposited data

Results flagged for a closer look

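Txnip, a carbohydrate-responsive gene of the control list, had zone ratios of opposite sign in the libraries, each past 1.5-fold. In chow it was at 23.6 CPM in periportal, 19.4 in midlobular and 12.7 in pericentral cells, a pericentral over periportal log2 ratio of -0.84 (-1.15 to -0.65). On the NASH diet it was at 35.6, 65.5 and 92.4 CPM, a ratio of 1.35 (1.18 to 1.58). The ratios differ by 2.20, and with 1 library per diet that difference was not tested.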

How the results depend on the processing

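No paired analysis was possible because each diet has 1 library. Gys2 and Slc2a2 stayed past 1.5-fold by diet in all 23 other settings, some of which (no minimum of 50 UMIs, counting at 2-fold) cannot change a gene's ratio. The count of the 8 genes higher by diet was 2 in the main analysis and became 5 in cells of 0 to 10% mitochondrial UMIs, 6 in a marker gate at 30 to 50%, and 4 in cells of 5000 to 10000 UMIs, as a mean over cells and after thinning to 3000 UMIs. The background moved as well. Of all genes tested, 9.88% were higher in the main analysis and 28.2% in cells of 5000 to 10000 UMIs, the highest share of the other settings. The share lower went from 4.89% to 9.72% there. The count lower by diet, 0, became 1 (Pck1) after subtracting the median of all genes and in cells of 10 to 20% mitochondrial UMIs. In chow the count lower in pericentral cells, 5, became 3 as a mean over cells and after thinning. On the NASH diet that count, 2, became 4 in cells of 0 to 10% and of 10 to 20% mitochondrial UMIs and between the outermost of 5 bins of cells. In cells of 0 to 10%, of which 10 and 6 are periportal, 1 gene in chow and 2 on the NASH diet were higher in pericentral cells, Slc2a2 in chow turned to 0.67, the periportal diet counts became 4 higher and 1 lower, and the pericentral lower count became 0. The midlobular higher count, 3, became 5 there and in cells of 10 to 20%. For the zone counts under other settings the share of all genes was not computed, so these counts have no background here. The causes were not tested. Of the counts by which the comparisons were read, 161 values of the alternatives chosen at the start and 26 of those added after seeing the data stayed within 1.5 times of the main value, and 19 moved as given. All 8 shares of cells with a UMI depend on the depth to which cells are thinned. Depth limits Pklr and Gys2 most, of which the median chow cell held 0 UMIs.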

Other observations

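Barcodes left out for over 30% mitochondrial UMIs also held these transcripts. In those of 30 to 80%, 463 in chow and 2389 on the NASH diet, Gys2 stood at 49.5 and 157 CPM over non-mitochondrial UMIs and Slc2a2 at 141 and 257, so both were higher in the NASH diet library there too. In those over 80%, 2570 and 1122 barcodes, Gys2 stood at 47.6 and 149 and Slc2a2 at 52.1 and 138. Pck1 was at 2361 and 1830 in the first group and at 1566 and 1615 in the second.

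The serine dehydratase Sds, which feeds amino acid carbon into glucose synthesis, had the steepest zone slope among the genes of the carbohydrate lists named here, from 294 CPM in periportal to 5.56 CPM in pericentral chow cells (-5.49) and from 443 to 10.2 CPM on the NASH diet (-5.31). Sord ran the opposite way in both libraries, from 200 to 613 CPM in chow (1.61) and from 661 to 1356 CPM on the NASH diet (1.03). Igfbp1 went from 166 to 217 CPM in chow (0.38) and from 7.497 to 37.3 CPM on the NASH diet (2.17). These 3 genes were chosen after their values were seen.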
